A study of Mus musculus with 302 samples.

Results

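Genes of the liver's matrix-forming cells were followed across 302 F2 mouse livers. They were the fibrillar collagen genes Col1a1, Col1a2 and Col5a2, the collagen-binding proteoglycan gene Lum, and the smooth muscle actin gene Acta2. The 5 genes were chosen by name, out of 10815 named genes, and 9 of the 23562 probes carry their names. Each mouse gave 1 liver RNA, compared on a 2-colour array with a pool of equal portions of all the RNAs. The mice were F2 offspring of C57BL/6J and C3H/HeJ, crossed in both directions, and the animals of 1 cross share long chromosome stretches. A chow of 4% fat was given up to week 8, followed by 12 weeks on a diet of 42% fat and 0.15% cholesterol, and the livers were taken at 20 weeks after a fast of 12 h. All livers form 1 group with no control diet, so the spread between mice and the genes that moved together were measured.

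Hepatic stellate cells store vitamin A in the healthy liver, and when activated they become myofibroblasts that secrete collagen fibrils and express smooth muscle actin. Col1a1 and Col1a2 encode the chains that join in the triple helix of type I collagen, the main fibril of scar tissue. Col5a2 encodes a chain of type V collagen, which takes part in the start of fibril assembly, and Lum encodes lumican, which binds to fibril surfaces. Acta2 is also a contractile gene of the muscle around vessels and ducts. In whole liver, fewer cells of a type and less RNA per cell cannot be told apart.

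Each value was read as log10 of liver over pool, so 0 is the pool's level. The base and the direction are likely, but the labels do not state them. A ratio to a pool of the same tissue gives no level, so levels were not compared between genes and the presence of the cell types was not checked. Mice were placed in 4 blocks. The Y-linked gene Eif2s3y had a gap between -0.968 and -0.437, which parted 142 livers with low values from 160 with high values, and the mouse number in the title was up to 212 in 159 livers and above it in 143. The blocks held 77 and 65 Eif2s3y-low livers and 82 and 78 Eif2s3y-high livers, each for numbers up to 212 and above. No sex was assigned, and levels were not tested between the Eif2s3y sets. Block-centred values are values minus the mean of their block.

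Promoter sequences are shown for Col1a2 and Acta2, because a collagen gene and the actin gene of activated stellate cells are set against each other in the results. Each run is the 250 bases before the RefSeq gene start, 5′ to 3′ on the gene's strand, in the build GRCm38.p6. The capitals mark matches to the motifs searched. The Col1a2 run lies at chr6:4505368-4505617 on the plus strand and the Acta2 run at chr19:34255374-34255623 on the minus strand.
Col1a2: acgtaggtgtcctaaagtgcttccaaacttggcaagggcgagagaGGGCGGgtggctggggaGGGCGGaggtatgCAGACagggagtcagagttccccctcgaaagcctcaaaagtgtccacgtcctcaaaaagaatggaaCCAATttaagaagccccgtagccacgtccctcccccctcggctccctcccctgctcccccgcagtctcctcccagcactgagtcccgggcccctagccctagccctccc
Acta2: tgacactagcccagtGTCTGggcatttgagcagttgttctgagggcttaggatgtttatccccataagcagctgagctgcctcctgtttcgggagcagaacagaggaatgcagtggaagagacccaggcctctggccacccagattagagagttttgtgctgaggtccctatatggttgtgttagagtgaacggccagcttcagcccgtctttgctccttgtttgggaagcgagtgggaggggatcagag

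The Col1a2 run held CCAAT once, from 109 to 105 bases before the start, GGGCGG at 2 places, from 205 to 200 and from 188 to 183, and CAGAC once, from 175 to 171. The Acta2 run held CAGAC once, on the opposite strand from 235 to 231 bases before the start. The search also covered TATAAA, then the letters TGAGTCA, and then the strict form of the CArG box, a motif known from contractile gene promoters, and neither run held an exact match. Forms of the CArG box with a mismatch, which are known in such promoters, were not searched. Both strands were searched, and no matches overlapped. Of 32851 promoters of that length, 33.8% held CCAAT, 32.7% held GGGCGG and 42.2% held CAGAC. The TATAAA letters were in 12.4% of them, TGAGTCA in 4.46% and the strict CArG box in 1.47%. A match is a description of letters and was not tested as a site.

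Col1a1 varied most among the 5 genes. It ran from -1.15 in mouse 325 through a median of -0.388 to 0.767 in mouse 206. Its 95th percentile was 20.8-fold its 5th. It lay above the pool in 68 of 302 livers. Its SD was 0.410 over all livers and 0.330 after block centring (n = 302), and 90 of 23512 probes had a larger block-centred SD. The median probe had a block-centred SD of 0.0613. Read in this direction, 26 livers had over 2-fold more Col1a1 than the pool and 179 had over 2-fold less, and these counts change places if the ratio is turned. The mean linear ratio was 0.748.

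Col1a2 ran from -0.518 in mouse 198 through a median of -0.161 to 0.709 in mouse 206, and 76 livers lay above the pool. Its block-centred SD was 0.187. Col5a2 ran from -0.468 in mouse 64 through -0.127 to 0.630 in mouse 76, with 83 livers above the pool and a block-centred SD of 0.185. Mouse 206 had the highest value of Col1a1, Col1a2 and Lum, the 11th highest of Col5a2 and the 75th highest of Acta2. Mouse 76, the highest for Col5a2, stood at rank 299 for Col1a2, 297 for Lum and 261 for Col1a1 among 302.

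Lum ran from -0.449 in mouse 131 through a median of -0.0896 to 0.590 in mouse 206, with 86 livers above the pool and a block-centred SD of 0.145. Acta2 had the smallest spread of the 5, from -0.30 in mouse 65 through -0.0539 to 0.541 in mouse 54, with 108 livers above the pool and a block-centred SD of 0.142. Mouse 54 was also the 2nd highest for Col1a1. No member value lay at the limits of -2 and 2. All 5 genes were above the pool in 32 livers and all 5 below it in 122, or the other way round if the ratio is turned. The differences in SD between genes were not tested.

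The other probes of these genes had little spread. The 3 further Col1a1 probes carry an identifier outside the mouse gene table, with block-centred SDs from 0.0444 to 0.0546, and their correlations with the mouse Col1a1 probe were -0.221, 0.138 and -0.0159. The 2nd mouse probe of Col1a2 had an SD of 0.0558 and a correlation of 0.0681 with the Col1a2 probe used. Each gene was therefore represented by its mouse probe of largest spread. With the mean of both Col1a2 probes the SD fell to 0.0993.

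**Figure D1:**
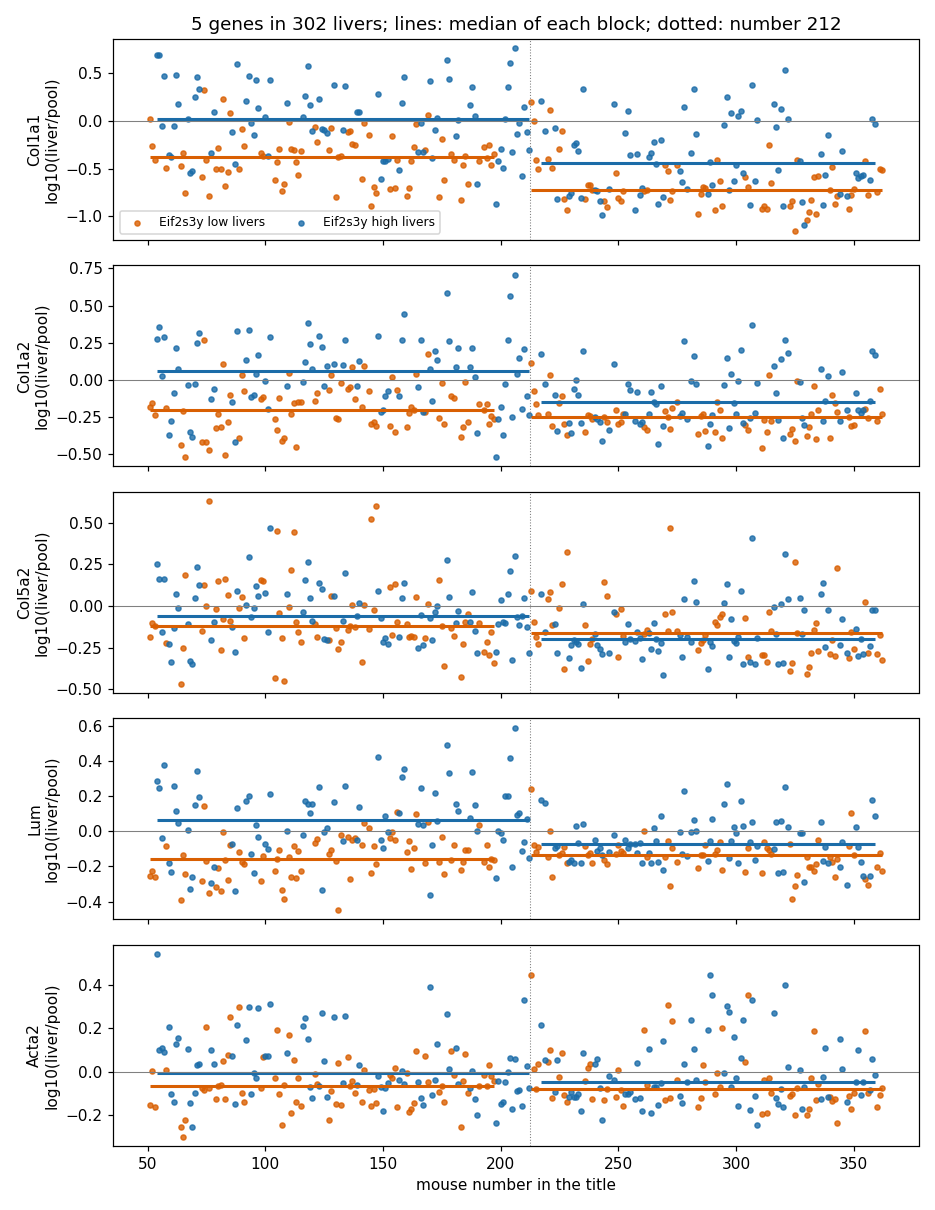
Log10 ratio of liver to pool for Col1a1, Col1a2, Col5a2, Lum and Acta2 in each of 302 livers, by the mouse number in the title, with Eif2s3y-low livers in orange, Eif2s3y-high livers in blue, and a horizontal line at each block's median. Col1a1 spans the widest range, its block medians run from -0.724 to 0.0236, and Acta2 lies closest to the pool's level.

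The block medians of Col1a1 were -0.372 and -0.724 in the Eif2s3y-low livers, for numbers up to 212 and above, and 0.0236 and -0.439 in the Eif2s3y-high livers. Lum medians were -0.158 and -0.136 in the low livers and 0.0637 and -0.0710 in the high livers. The blocks overlapped in range for every gene. With Eif2s3y as a covariate, 4 of the 5 genes were lower in livers numbered above 212, beside 30.6% of all 23512 probes that were lower and 64.5% that differed in either direction. The difference in Col1a1 was -0.346 ± 0.0382 (SE, 2.22-fold lower, limma adjusted p = 4.13e-16), and 7 probes had a larger absolute difference. Col1a2 differed by -0.112 ± 0.0218 (adjusted p = 1.55e-06), Col5a2 by -0.0962 ± 0.0213 (2.69e-05) and Lum by -0.0606 ± 0.0170 (0.000941). Acta2 differed by -0.00818 ± 0.0164 (adjusted p = 0.679). The labels do not say what changed at that number.

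All 10 pairs of the 5 genes were positively correlated across livers after block centring. Every pair passed the fit across all probes, a linear model of each probe on the member with the 4 blocks (limma, Benjamini-Hochberg, threshold 0.05), with the largest adjusted p 7.62e-06. In those fits 61.3% of all 23511 other probes followed Col1a1, 59.8% Col1a2, 34% Col5a2, 61.9% Lum and 29.9% Acta2, and the shares that followed positively were 21.8%, 20.3%, 12.4%, 21.7% and 11.2%. Negative shares were 39.5%, 39.4%, 21.6%, 40.2% and 18.7%. A call alone thus says little about a gene in this cross, and sizes are given. The p-values measure the spread between these mice, which may share litters.

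The type I collagen genes were the closest pair. Col1a1 and Col1a2 had r = 0.854 (95% interval 0.819 to 0.882, rho 0.851, n = 302), and 251 of 302 livers lay on the same side of the block mean in both. A 2-fold higher Col1a1 ratio went with a 1.40-fold higher Col1a2 ratio, a slope of 0.483 ± 0.0170 on the log scale. Col1a1 ranked 2nd of 10814 genes by r with Col1a2, and Col1a2 ranked 5th for Col1a1. With the other 3 genes held constant the partial r of the pair was 0.737. Every pair's permutation p within blocks was 1e-05 for r and for rho, the smallest that 100000 resamples can give.

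Lum tracked Col1a2 at r = 0.687 (rho 0.632) and Col1a1 at 0.581 (rho 0.544). The difference of 0.106 between these correlations passed Williams' test (adjusted p = 1.50e-05 over 30 comparisons). Given the other 3 genes, the partial r of Lum was 0.435 with Col1a2 and -0.0314 with Col1a1. Col5a2 had r = 0.445 with Col1a1 (rho 0.515), 0.470 with Col1a2 (rho 0.515) and 0.373 with Lum (rho 0.392).

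For Acta2 the r was 0.432 with Col1a1 (rho 0.420), 0.349 with Col1a2 (rho 0.356), 0.314 with Col5a2 (rho 0.336) and 0.270 with Lum (rho 0.303). For Col1a2, Lum was closer than Acta2 by 0.338 (Williams' test, adjusted p = 1.79e-09), and Col5a2 was closer than Acta2 by 0.120 (adjusted p = 0.0606). Among the 30 comparisons 21 passed, and 19 passed on ranks as well. Without the 2 livers farthest from the median of the first gene, the 10 correlations ran from 0.261 for Lum and Acta2 to 0.850 for Col1a1 and Col1a2.

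The first principal component of the 5 block-centred genes held 59.6% of their variance, with all 5 genes on the same side. The second held 16.0% and was mostly Acta2, with a loading of -0.850. All 5 genes lay above the block mean in 42 livers and none in 58. The median over an array's probes moved with the members, although it ranged only from -0.0115 to 0.0172. Its block-centred r was -0.683 with Col1a2, -0.676 with Lum, -0.558 with Col1a1, -0.312 with Col5a2 and -0.299 with Acta2. With that median as a covariate the r of Col1a1 and Col1a2 was 0.780 and that of Col1a2 and Lum 0.419, and 9 of 10 pairs kept a permutation p under 0.05. The exception was Lum and Acta2, at r = 0.0971 (permutation p = 0.105).

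**Figure D2:**
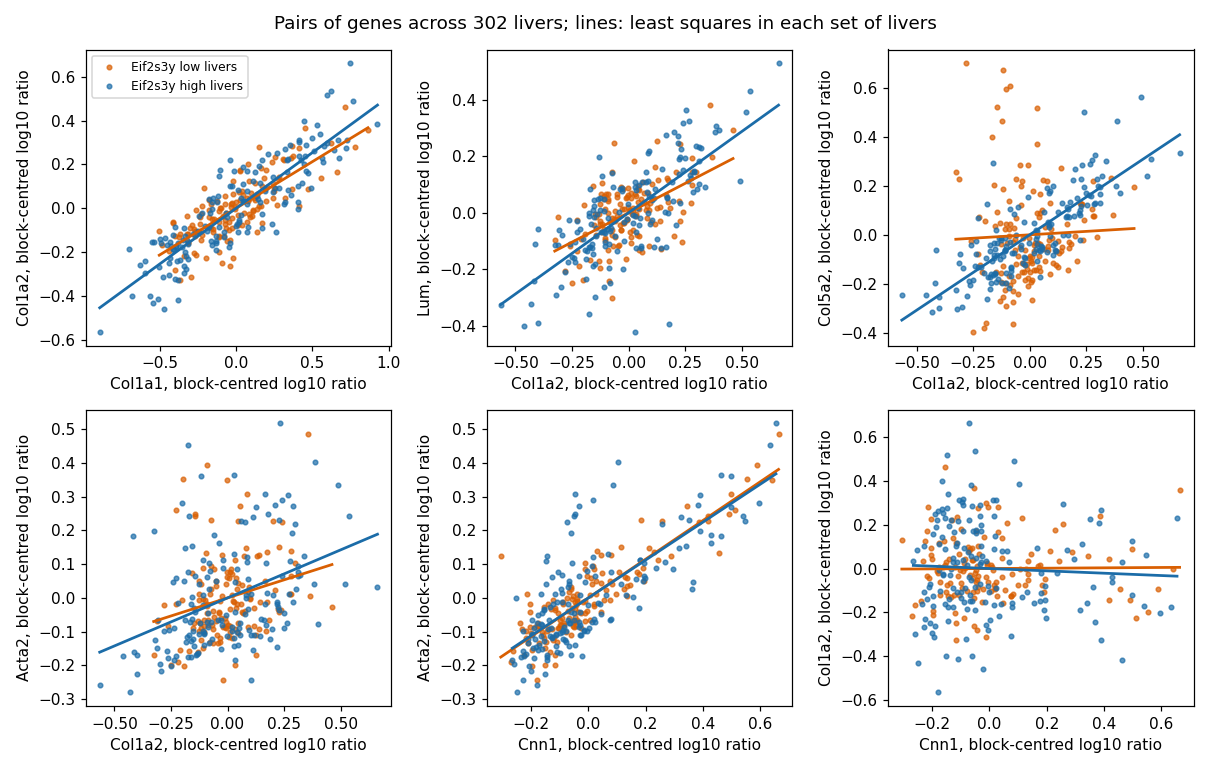
Block-centred log10 ratios of 6 pairs of genes, 1 point per liver, with Eif2s3y-low livers in orange, Eif2s3y-high livers in blue and a least-squares line for each. Col1a1 and Col1a2 rise together in both sets, Col5a2 rises with Col1a2 along the blue line only, and livers with high Cnn1 have high Acta2 but no higher Col1a2.

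Col5a2 followed the other 4 genes in the Eif2s3y-high livers, and in the Eif2s3y-low livers Pearson's r with each of them did not pass. This comparison was made after the block values had been seen. Col5a2 and Col1a2 had r = 0.811 (95% interval 0.750 to 0.859, n = 160) in the high livers and 0.0389 (-0.128 to 0.203, n = 142, permutation p = 0.659) in the low livers. Col5a2 and Col1a1 had 0.781 (0.712 to 0.835) and 0.0376 (-0.129 to 0.202, permutation p = 0.657). For Lum the values were 0.639 and 0.0362, and for Acta2 0.478 and 0.142. On ranks the low livers gave 0.139 with Col1a1 (permutation p = 0.101) and 0.135 with Col1a2 (permutation p = 0.109), 0.0684 with Lum (permutation p = 0.421) and 0.190 with Acta2 (permutation p = 0.0232).

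The change of slope was tested in a model of each probe on Col5a2, the blocks and the product of Col5a2 with the Eif2s3y set. The slope of Col1a2 on Col5a2 was 1.07 ± 0.0610 in the high livers and 0.0271 ± 0.0587 in the low livers (difference, limma adjusted p = 5.47e-24). That of Col1a1 was 1.79 ± 0.113 and 0.0485 ± 0.108 (adjusted p = 1.11e-20), that of Lum differed with an adjusted p of 6.70e-13 and that of Acta2 with 0.000153. All 4 passed, beside 39.6% of all probes whose slope on Col5a2 differed. With Col5a2 as the response, the difference passed for its slope on Col1a1 (adjusted p = 0.000305) and on Col1a2 (0.000452) and not for its slope on Lum (0.186) or Acta2 (0.375). The same test for slopes on Col1a1, Col1a2, Lum and Acta2 called 3.15%, 0.685%, 0% and 1.18% of probes. For Lum the count was 0 by limma, with 2629 probes at an unadjusted p under 0.05.

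Col5a2 itself varied in both sets of livers. Its SDs were 0.223 and 0.180 in the low blocks and 0.173 and 0.161 in the high blocks. The pairs without Col5a2 kept a positive r in the low livers. Col1a1 and Col1a2 had r = 0.785 there and 0.881 in the high livers, and Col1a2 and Lum had 0.543 and 0.740. For Col1a1 and Lum the values were 0.409 and 0.649, and for Col1a1 and Acta2 0.397 and 0.451. Col1a2 and Acta2 had 0.241 and 0.402, and Lum and Acta2 0.280 and 0.268. The slope differences of these 2 pairs did not pass (adjusted p = 0.204 for Col1a2 on Col1a1 and 0.336 for Lum on Col1a2).

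**Figure D3:**
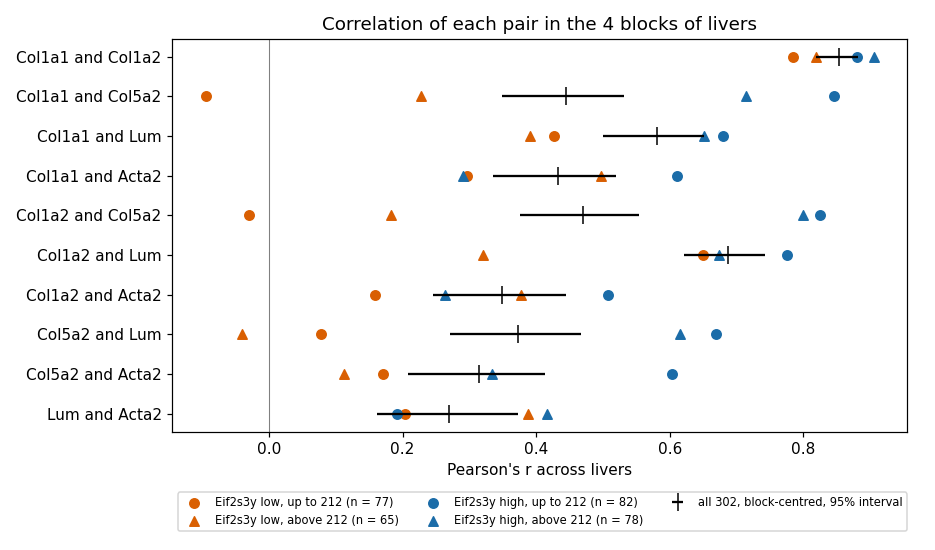
Pearson's r of each of the 10 pairs in the 4 blocks of livers (orange for Eif2s3y-low, blue for Eif2s3y-high, circles for numbers up to 212, triangles above) and over all 302 block-centred livers with its 95% interval in black. The orange points of the pairs with Col5a2 lie between -0.0949 and 0.228, and the blue points between 0.334 and 0.846.

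In the Eif2s3y-low livers 17 probes followed Col5a2, 0.0723% of those tested, and in the high livers 11834 did, 50.3%. For Col1a2 the shares were 35.3% and 53.7%, for Col1a1 44.6% and 53.6%, and for Lum 34.8% and 53.4%. For Acta2 they were 3.17% and 26.9%. In the low livers the genes nearest to Col5a2 lay mostly on chromosome 1, which also carries Col5a2. Among the 50 genes with the largest absolute r, 33 were on chromosome 1, where 616 of 10814 measured genes lie (5.70%).

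The 7 named genes called in the low livers were chosen by that result. They were Lancl1 (r = -0.461, adjusted p = 5.52e-05), a glutathione-binding protein gene, Pign (-0.399), an enzyme of membrane anchor synthesis, Tmem37 (-0.361), Mixl1 (-0.346), a homeobox gene, Fcrla (0.393) and the protease gene Capn10 (0.408), all 6 on chromosome 1. The 7th was Trhr2 (-0.391) on chromosome 8, a thyrotropin-releasing hormone receptor gene, and in the high livers its r was -0.534. Of the 6 genes on chromosome 1, 3 were called in the high livers, where 50.3% of all probes followed Col5a2. They were Mixl1 at r = -0.403, Tmem37 at -0.290 and Fcrla at 0.216. The others had -0.138 for Lancl1, -0.0383 for Pign and 0.122 for Capn10 there. With Col1a2 as a covariate, Pign (-0.295, adjusted p = 0.00869), Mixl1 (-0.290, 0.0107) and Capn10 (0.237, 0.0441) were called in the high livers. That fit called 712 of 10814 genes, 54 of them among the 616 on chromosome 1. The slope difference between the sets passed for Pign (adjusted p = 0.0134), and for the other 5 the adjusted p ran from 0.0564 for Lancl1 to 0.918 for Tmem37.

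The 33 genes lay from 398 genes before Col5a2 to 2102 genes after it in the gene table. They made up 6 of the 201 measured genes within 500 genes of Col5a2, 5 of the 115 between 501 and 1000 genes away and 22 of the 300 farther off. They were thus not gathered next to Col5a2. In the high livers 4 of the 50 nearest genes were on chromosome 1, and with Col1a2 as a covariate the numbers were 28 of 50 in the low livers and 4 of 50 in the high livers. For the other members, 0 to 5 of the 50 nearest genes lay on the member's own chromosome in either set. No genotypes were used, so linkage was not tested.

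**Figure D4:**
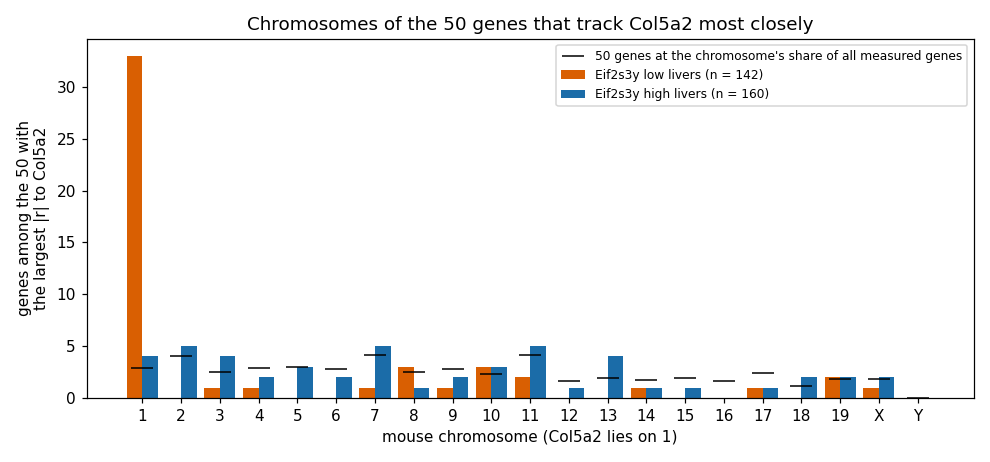
Number of genes on each mouse chromosome among the 50 with the largest absolute correlation with Col5a2, in Eif2s3y-low livers (orange) and Eif2s3y-high livers (blue), with dashes at the number that the chromosome's share of measured genes gives. In the low livers 33 of 50 lie on chromosome 1, and in the high livers 4.

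In the Eif2s3y-high livers the gene nearest to Col5a2 was Tnc. This gene, for the matrix glycoprotein tenascin C, had r = 0.816, the filament gene Vim 0.812, the plasminogen activator gene Plat 0.806, Col5a1, the partner chain of type V collagen, 0.803, and the macrophage glycoprotein gene Gpnmb 0.793. In the low livers the same genes had r = 0.0360, 0.0715, 0.0596, 0.169 and 0.0477. They were picked for their r in the high livers, so the drop is a description. Col6a3, itself on chromosome 1, had 0.788 in the high livers and -0.0467 in the low livers.

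Over all 302 livers the gene nearest to Col1a1 was Pcolce. Pcolce, which enhances the trimming of procollagen, had r = 0.893 (rho 0.888), Col5a1 0.889 (rho 0.887), the PDGF receptor gene Pdgfrb 0.856 (rho 0.831), the macrophage glycoprotein gene Gpnmb 0.855 (rho 0.863), the crosslinking enzyme gene Loxl1 0.851 (rho 0.842) and the type VI collagen gene Col6a3 0.850 (rho 0.835). The lowest were Igfbp2, an IGF-binding protein gene of hepatocytes (-0.698), Krtap19-5 (-0.697) and Ftsj1 (-0.694). Each had a permutation p of 1e-05. The probes of Krtap19-5 and Ftsj1 had block-centred SDs of 0.0439 and 0.0409, below the median probe's 0.0613, and that of Igfbp2 had 0.225. Pcolce and Col5a1 ranked above Col1a2, the partner chain, a difference that was not tested.

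Col1a2 was nearest to Col6a3 (r = 0.873), Gpnmb (0.849), the serine protease gene Htra1 (0.828), Vim (0.825), the matrix adaptor gene Matn2 (0.823) and Cd63 (0.819). Its lowest were Lrcol1 (-0.691), Krtap19-5 (-0.688) and Msx2 (-0.686), with block-centred SDs of 0.0538, 0.0439 and 0.0906. Lum was nearest to the laminin gene Lama2 (0.760), Gpm6b (0.732), the matrix gene Smoc2 (0.719), the matricellular gene Thbs2 (0.719), Col6a3 (0.718) and Antxr1 (0.716), a receptor that binds collagen. Its lowest were BC024139 (-0.601), Zfyve9 (-0.593) and Thop1 (-0.591). Col5a2 over all livers was nearest to Col5a1 (0.525), Loxl1 (0.496), Vim (0.472), Tnc (0.470), Plat (0.466) and BC147527 (0.464), and its lowest were Trhr2 (-0.457), BC024139 (-0.381) and Vax2os (-0.380).

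Among the 100 genes nearest to each member, 12 were common to all 5: Acss1, Anxa1, Col6a3, Fhl2, Golm1, Loxl1, Plat, Ppic, Rab15, Svep1, Tmem119 and Vim. The 100 nearest of Col1a1 and Col1a2 shared 67 genes, and those of Lum and Acta2 shared 19. Vim, for example, had r = 0.826 with Col1a1, 0.825 with Col1a2, 0.472 with Col5a2, 0.557 with Lum and 0.461 with Acta2. These lists come from the same livers and are a description.

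The 3 genes nearest to Acta2 were on the smooth muscle list. Tagln, an actin-binding protein of smooth muscle, had r = 0.828 (rho 0.813), calponin Cnn1 0.803 (rho 0.756) and the smooth muscle myosin gene Myh11 0.758 (rho 0.674). The next were the epithelial mucin gene Muc1 (0.687, rho 0.570), S100a6 (0.648, rho 0.606) and the mucin gene Muc3 (0.615, rho 0.380). Its lowest were the cytochrome P450 genes Cyp2c50 (-0.394), Cyp2c37 (-0.394) and Cyp2c54 (-0.385). Within the Eif2s3y-low livers Cckar, a cholecystokinin receptor gene (0.729), the mucosal gene Dmbt1 (0.715), Muc3 (0.710) and the intestinal ion exchanger gene Slc26a3 (0.708) stood among the 8 nearest genes. On ranks Cckar had 0.430, Muc3 0.415 and Slc26a3 0.429, well below their r.

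Acta2 moved both with smooth muscle genes and with collagen genes. Cnn1 alone accounted for 64.4% of the block-centred variance of Acta2, and Cnn1 with Col1a1 for 78.6%. Cnn1 itself had r = 0.0696 with Col1a1, -0.0286 with Col1a2, 0.0517 with Col5a2 and 0.0436 with Lum. With Cnn1 as a covariate, a step added after the values had been seen, the r of Acta2 with Col1a1 went from 0.432 to 0.632, with Col1a2 from 0.349 to 0.624, with Col5a2 from 0.314 to 0.457 and with Lum from 0.270 to 0.394. Each had a permutation p of 5e-05, the smallest that 20000 resamples can give. The rises follow arithmetically from the high r of Cnn1 with Acta2 and its small r with the others. They are a description and not separate evidence.

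Up to 4 genes of each list are named by their absolute r with Col1a2, and the others named in these paragraphs were picked after their values were seen. Some genes of negative r named below had less block-centred spread than the median probe (SD 0.0613). Their SDs were 0.0337 for Hnf4a, 0.0466 for Cd3e, 0.0443 for Epyc, 0.0453 for Peg10 and 0.0365 for Actg2. The array median was not used as a covariate for single genes or lists. Counts of each list are read beside the shares of all 10814 genes. The positive and negative shares were 25.9% and 36.8% for Col1a1, 24.2% and 37.3% for Col1a2 and 15.2% and 21.1% for Col5a2. For Lum they were 24.1% and 38.7%, and for Acta2 13.9% and 18.1%. Genes of the matrix followed the type I collagens in part. Of 14 measured genes of basement membranes and microfibrils, 11 followed Col1a1 positively and 1 negatively, with a median r of 0.562 beside -0.0379 over all 10814 genes, of which 25.9% followed positively and 36.8% negatively. Col6a3, Nid1 (r with Col1a2 0.789), Lama2 (0.775) and the basement membrane collagen gene Col4a1 (0.686) were the nearest to Col1a2. Of 13 other fibrillar collagen and fibril-associated genes 9 followed Col1a1 positively and 1 negatively, with a median of 0.405. Among them Col5a1 had r = 0.815 with Col1a2, the collagen-binding gene Sparc 0.785, Col14a1 0.767 and Thbs2 0.703. Elastin, Eln, had 0.0721 with Col1a1 and -0.0769 with Col1a2.

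Collagen processing split. Of 17 such genes 11 followed Col1a1 positively and 4 negatively, with a median of 0.1998. Pcolce, Loxl1 and the collagen chaperone gene Serpinh1 had r = 0.808, 0.792 and 0.713 with Col1a2, and the crosslinking enzyme gene Lox 0.672, while Adamts14 had -0.421 and Bmp1 -0.346, both genes of procollagen-trimming enzymes. Of 18 matrix proteases and inhibitors 12 followed Col1a1 positively and 4 negatively (median 0.276), led with Col1a2 by Plat (0.787), the gelatinase gene Mmp2 (0.762), the collagen-degrading cathepsin gene Ctsk (0.750) and the macrophage elastase gene Mmp12 (0.702).

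Among 7 small leucine-rich proteoglycans, the family of Lum, 4 followed Lum positively and 2 negatively (median 0.163, beside -0.0524 over all genes). Dcn, the gene next to Lum in the gene table and encoding decorin, had r = 0.553 with Lum and Bgn 0.469, whereas the nearby Kera and Epyc had -0.253 and -0.359. All 4 measured genes within 10 genes of Lum were called, 1 of them positively, beside 62.9% of all genes called with Lum. Near Col1a1, 4 of 7 measured genes were called, 2 of them positively, beside 62.7%. Near Col1a2, 3 of 4 were called, 1 of them positively, beside 61.6%. Sgce had r = 0.619 and Peg10 -0.379, although Sgce and Peg10 are adjacent in the gene table, and Casd1 had -0.165. Near Acta2, 3 of 6 were called, all positively, beside 13.9% of all genes that followed Acta2 positively. They were Ch25h (0.378), Ifit2 (0.184) and Lipa (0.155). The 1 measured gene near Col5a2, Wdr75, was not called (-0.115). These counts were not tested against the shares.

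The signalling genes of the TGF-beta and PDGF families were mixed. Of 23 measured, 17 followed Lum positively and 3 negatively, 15 and 3 followed Col1a2, 13 and 4 Col1a1, 13 and 2 Col5a2, and 10 and 3 Acta2. The medians ran from 0.110 with Acta2 to 0.300 with Col1a2. Over all genes the positive shares were 24.1% for Lum, 24.2% for Col1a2, 25.9% for Col1a1, 15.2% for Col5a2 and 13.9% for Acta2. The receptor gene Pdgfrb had r = 0.769 with Col1a2, and Ltbp3, Ltbp2 and Ltbp1, which encode proteins that hold latent TGF-beta in the matrix, had 0.748, 0.645 and 0.606. The ligand Tgfb1 had -0.186 and the receptor Tgfbr1 -0.479 with Col1a1. Pdgfra had 0.612 with Lum and 0.217 with Col1a1.

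**Figure D5:**
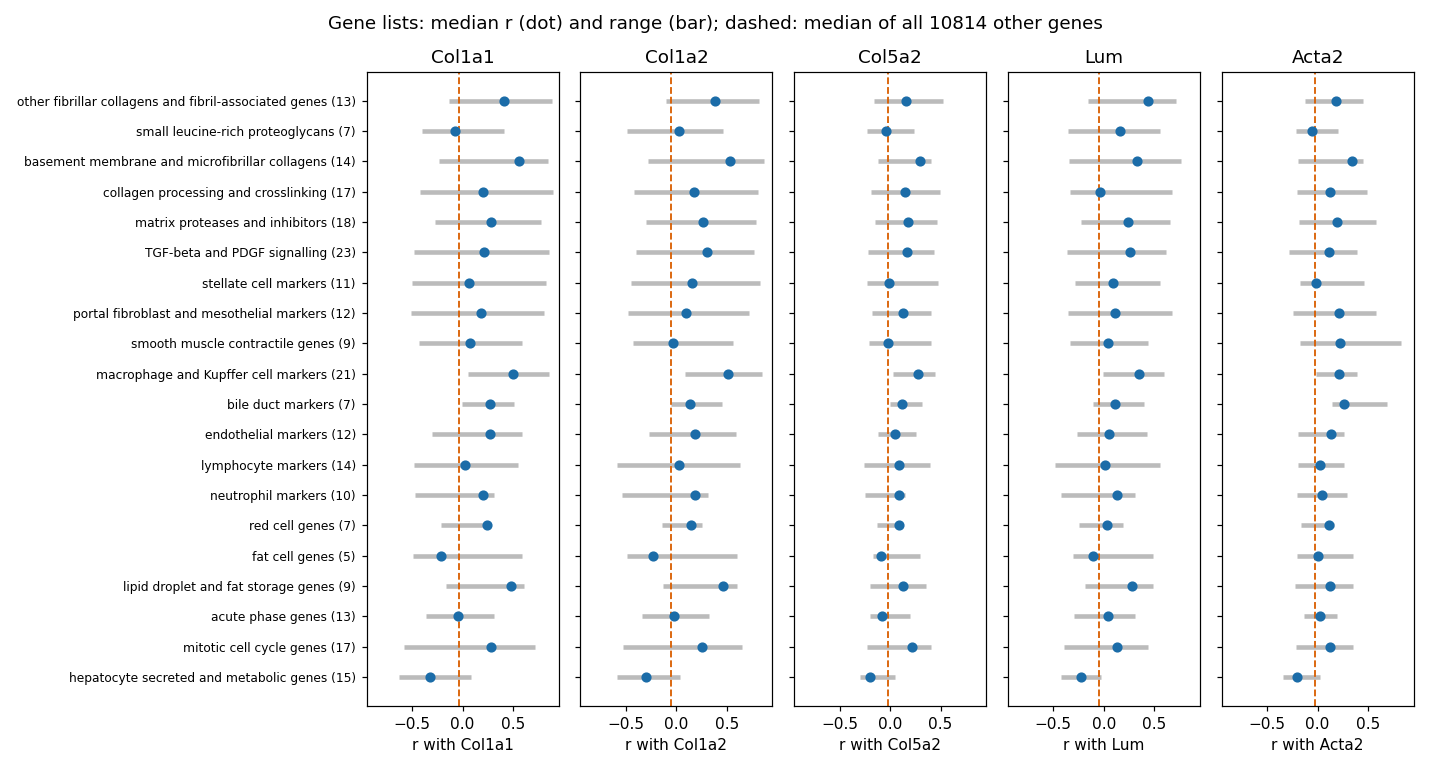
Median correlation (dot) and range (bar) of the genes of 20 lists with each of the 5 members over 302 block-centred livers, with the number of measured genes in parentheses and the median of all 10814 other genes as a dashed line. The medians of the macrophage list and of the basement membrane and microfibrillar list lie to the right of the dashed line for all 5 members. So do those of most other lists. The median of hepatocyte genes lies to the left of that line for all 5 members.

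Of 11 measured stellate cell markers, 3 followed Col1a1 positively and 2 negatively, with a median of 0.0668. The positive share of 27.3% was close to the 25.9% over all genes, of which 36.8% followed Col1a1 negatively. With Col1a2 the counts were 6 and 2 (median 0.157), beside 24.2% of all genes that followed it positively, and with Col5a2 4 and 1 (median -0.0102), beside 15.2%. Vim, also a gene of other mesenchymal cells, had r = 0.825 with Col1a2, Lrat, the enzyme gene of vitamin A storage, 0.528, Pth1r 0.362 and Hhip -0.446. Lrat and Reln had 0.516 and 0.527 with Lum and 0.0592 and 0.0130 with Acta2. Of 12 portal fibroblast and mesothelial markers 6 followed Col1a1 positively and 2 negatively (median 0.177), with Cd34 at 0.715, Fbln2 at 0.709, Entpd2 at 0.646 and Wt1 at 0.623 against Col1a2. Of 9 smooth muscle genes 5 followed Acta2 positively and 1 negatively (median 0.225), and 3 and 3 followed Col1a1. Over all genes 13.9% followed Acta2 positively and 18.1% negatively, and 25.9% and 36.8% followed Col1a1. Actg2, the enteric actin gene, had 0.474 with Acta2 and -0.264 with Col1a2.

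Most macrophage genes moved with each of the 5 members over all livers. Of 21 measured markers, 20 followed Col1a1 positively, 20 Col1a2, 19 Lum, 18 Col5a2 and 14 Acta2, and none was called negatively. The medians were 0.497, 0.514, 0.344, 0.279 and 0.213. Over all genes the positive shares were 25.9%, 24.2%, 24.1%, 15.2% and 13.9%, in the same order of members. With Acta2 1 of 21 was called in the Eif2s3y-low livers (median 0.139) and 12 of 21 in the high livers (median 0.226), a difference that was not tested. Of all 23511 probes, 437 followed Acta2 positively in the low livers and 2649 in the high livers. In either direction the shares were 3.17% and 26.9%, so the contrast is not particular to macrophage genes. Genes known from lipid-associated macrophages led, with Gpnmb at r = 0.849, Trem2 at 0.804 and Itgax at 0.757 against Col1a2, and the chemokine gene Ccl2 at 0.722. The Kupffer cell genes Clec4f, Marco and Vsig4 had 0.169, 0.0841 and 0.245. With the mean of C1qc and Tyrobp as a covariate, 11 of 14 basement membrane and microfibril genes again followed Col1a1 positively (median 0.460), and 8 of 13 fibrillar genes did (median 0.319). Other counts fell. Col5a2 went from 13 to 6 positive signalling genes and from 11 to 5 proteases and inhibitors, and Acta2 from 12 to 8 of the latter. The positive share over all probes fell as well, from 12.4% to 5.37% for Col5a2 and from 11.2% to 5.61% for Acta2. For Col1a1 that share went from 21.8% to 16.5%. The falls in these lists are thus not particular to them. Of the 21 macrophage markers 9 still followed Col1a1 positively and 8 followed it negatively. C1qc and Tyrobp are themselves on that list, so these counts are in part set by the choice of covariate. What the covariate removes was not tested.

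Hepatocyte genes moved the other way. Of 15 measured, none followed a member positively, and 11 followed Col1a1, 12 Col1a2, 11 Col5a2, 11 Lum and 10 Acta2 negatively. The medians ran from -0.322 with Col1a1 to -0.201 with Col5a2. Over all genes the negative shares were 36.8% for Col1a1, 37.3% for Col1a2, 21.1% for Col5a2, 38.7% for Lum and 18.1% for Acta2. Against Col1a2, Hnf4a, the hepatocyte transcription factor gene, had r = -0.586, the sterol hydroxylase gene Cyp7b1 -0.565, Cyp2e1 -0.454 and Cyp1a2 -0.422. Their part in the correlations between the members was not tested.

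Of 9 lipid droplet genes 6 followed Col1a1 positively and 1 negatively (median 0.475), 6 and 1 followed Col1a2 (0.464), and 4 and 1 followed Col5a2 (0.129). Cidea and Fabp4, genes of lipid storage, had r = 0.601 and 0.600 with Col1a2, the fat cell regulator Pparg 0.584 and Plin4 0.492. Of 5 fat cell genes 2 followed Col1a1 positively and 3 negatively, and Lep had -0.491 with Col1a2. Of 17 mitotic genes 10 followed Col1a1 positively and 2 negatively (median 0.277), with Mcm6 at 0.653, Ccna2 at 0.588, Plk1 at 0.581 and Ccnb2 at 0.569 against Col1a2.

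Of 7 bile duct markers 6 followed Acta2 positively, with a median of 0.258, 5 followed Col1a1 (0.275), and 3 followed Col5a2 (0.122). Over all genes the positive shares were 13.9%, 25.9% and 15.2%. Krt19, a keratin of duct cells, had r = 0.574 with Acta2 and -0.0533 with Col1a2, and Epcam had 0.531 and 0.431. Of 12 endothelial markers 8 followed Col1a1 positively and 1 negatively, 4 and 4 followed Lum, and Vwf led with 0.587 against Col1a2. Of 14 lymphocyte markers 6 followed Col1a1 positively and 4 negatively, with Klrd1 at 0.627 and Cd3e at -0.588 against Col1a2. Of 10 neutrophil markers 6 and 3 followed Col1a1, of 7 red cell genes 5 and 1, and of 13 acute phase genes 3 and 3, with medians of 0.20, 0.240 and -0.0438. The positive share of the acute phase genes was 23.1%, below the 25.9% over all genes.

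In the Eif2s3y-low livers, where 0.0723% of all probes followed Col5a2, none of the genes in these 20 lists was called with it, a count that says nothing particular of the lists. In the high livers Col5a2 had 11 of 14 basement membrane and microfibril genes positive and 2 negative (median 0.529). It had 18 of 21 macrophage markers positive (median 0.485) and 11 of 15 hepatocyte genes negative (median -0.375). Over all 23511 probes there, 4244 followed Col5a2 positively and 7590 negatively. In the low livers the medians of these lists were -0.0122, 0.0403 and 0.00914, beside a median of 0.00348 over all genes. Col1a2 in the same low livers had 10 of 14, 20 of 21 and 9 of 15 genes called in those directions, and 1 of the 14 was called negatively. Over all 23511 probes there, 2932 followed Col1a2 positively and 5371 negatively.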

How the data were processed

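Liver RNA of 302 mice was compared with a pool on 2-colour arrays, with the liver in Cy3 and the pool in Cy5 per the labels. The authors deposited 1 log ratio per probe and mouse, read here as log10 of liver over pool. This base is likely and not stated: values end at -2 and 2, and Eif2s3y had a median of 0.195 in the 53.0% of mice with high values, where a pool fed by those mice alone would give 0.276 as log10, 0.916 as log2 or 0.635 as a natural log. The lowest correlation between arrays was -0.519, and 1035 of 45451 pairs lay under -0.3. The labels give 1 dye orientation, so the direction was kept. Correlations between genes do not depend on it. For scanner software and for normalization the sources used here give nothing, and no intensities were used, so signal over background was not examined.

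Probes with values in at least 90% of mice were kept, 23512 of 23562. Names came from the platform table through gene identifiers in the GRCm38.p6 gene table: 12620 probes were named for 10815 genes, 48 had several symbols, 1002 had 1 symbol outside the mouse table and 9842 were not listed. A gene was represented by its probe with the largest block-centred SD. Fits used limma 3.58.1 in R 4.3.3, with Benjamini-Hochberg adjustment over all probes, and were checked on simulated data. Permutations within blocks used Python 3.11.15 with numpy 2.4.6, scipy 1.17.1 and pandas 2.3.3. Intervals of r are 95% intervals. Equal correlation over the 4 blocks was tested by chi-square on Fisher's z.

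Named by rule were the 5 genes, for each the 6 genes of highest and 3 of lowest r, genes in the top 100 of all 5, up to 4 genes per list with the largest absolute r with Col1a2, and called genes within 10 genes of a member. The 5 genes and the lists were chosen with earlier results of these data known. Alternatives were other blocks, other probes, ranks, left-out arrays, and covariates. The separate fits of Eif2s3y-low and Eif2s3y-high livers and the covariates Cnn1 and array median were chosen after seeing the data.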

Additional observations from a re-analysis of the deposited data

Results flagged for a closer look

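For 8 of the 10 pairs the correlation differed between the 4 blocks of livers (chi-square test of Fisher's z, adjusted over the 10 pairs). For pairs with Col5a2 the adjusted p was 2.87e-17 with Col1a1, 2.87e-17 with Col1a2, 2.82e-08 with Lum and 0.00295 with Acta2. For Col1a1 it was 0.0349 with Col1a2, 0.0313 with Lum and 0.0349 with Acta2, and for Col1a2 with Lum it was 0.00139. Col1a2 with Acta2 (0.0885) and Lum with Acta2 (0.284) did not pass.

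Slopes on Col5a2 differed between Eif2s3y-high and Eif2s3y-low livers for all 4 other genes (limma, adjusted over all probes). The adjusted p was 1.11e-20 for Col1a1, 5.47e-24 for Col1a2, 6.7e-13 for Lum and 0.000153 for Acta2. With Col5a2 as the response, the difference passed for Col1a1 and Col1a2 and not for Lum (0.186) or Acta2 (0.375). These slopes restate the block differences of the pairs with Col5a2 in the same livers and are not separate evidence.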

How the results depend on the processing

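No paired analysis was possible because all mice form 1 group. Of 164 alternative values of the pair correlations, 148 kept their direction and call, 13 lost the call and 3 turned. In Eif2s3y-low livers numbered up to 212, r was -0.0949 for Col1a1 and Col5a2, -0.0304 for Col1a2 and Col5a2, 0.0776 for Col5a2 and Lum, 0.171 for Col5a2 and Acta2, 0.158 for Col1a2 and Acta2 and 0.203 for Lum and Acta2. In those above 212 it was 0.228, 0.183, -0.0401 and 0.112 for Col5a2 with Col1a1, Col1a2, Lum and Acta2. Both ranges of low livers together gave 0.0376, 0.0389, 0.0362 and 0.142. Lum and Acta2 had 0.191 in high livers numbered up to 212 and 0.0971 with the array median as a covariate. Single blocks hold 65 to 82 livers, so fewer samples alone make a call harder. The cause of the other changes was not tested.

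The count of probes that followed a member moved by over 1.5 times in 8 of 45 alternatives. In Eif2s3y-low livers it was 8303 for Col1a2, 17 for Col5a2, 8190 for Lum and 745 for Acta2. With the first principal component as a covariate it was 4815 for Col5a2 and 4201 for Acta2, and with macrophage markers 2589 and 2675. On ranks, 5 of 30 comparisons of correlations changed: Lum against Col5a2 for Col1a1 (0.0284) and Col1a1 against Col5a2 for Acta2 (0.0839) lost the call, Col5a2 against Acta2 for Col1a2 (0.160) and Col1a1 against Lum for Col5a2 (0.124) gained it, and Col1a2 against Col1a1 for Col5a2 turned (-6.27e-05). Of 1288 values of single genes, 1263 kept direction and call and 3 turned: Casd1 (0.0628) and Hbb-b2 (-0.00986) with Col1a2 under the macrophage covariate, and Cyp7b1 with Col1a2 without blocks (0.0296).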
